A study of Mus musculus with 12 samples.

Results

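Messenger RNA of 10 amino acid transporters of the kidney tubule was followed in mouse kidneys with and without ischemia-reperfusion (I/R) injury and with and without a proximal tubule deletion of ALR. The 10 genes, of 55487 in the count table, were picked by name: Slc6a18, Slc6a19, Slc6a20b, Slc7a7, Slc7a8, Slc7a9, Slc7a12, Slc7a13, Slc3a1 and Slc1a1. Each name matched 1 row of the table, and all 10 passed the filter on low counts in every comparison. The list was drawn up with the levels of these genes in the 4 groups already known, so their differences between groups are given as a description. Where an adjusted p or a call is printed for 1 of the 10, it states the place of that gene in a test across all genes and is not independent evidence.

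Bulk RNA sequencing covered 12 kidneys, 3 in each of 4 groups, and the labels name the tissue as kidney cortex. Control kidneys were sham operated (Ctrl, labelled WT) or had 22 min of bilateral ischemia followed, by the study's account, by 24 h of reperfusion (Ctrl+I/R). Knockout kidneys were likewise sham operated (PT-KO, labelled ALR knockdown) or injured (PT-KO+I/R). The deletion used floxed alleles of Gfer, the gene for ALR, and the Ggt1-Cre transgene, which acts in proximal tubule cells, so the other cells of the kidney were not targeted. Hemizygous Ggt1-Cre and ALR flox/flox mice were bred on a mixed C57BL/6 background and studied at an age of 6 to 8 weeks, and the study names ALR flox/flox mice as its controls.

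Almost all amino acids filtered by the glomerulus are taken back by the proximal tubule. Carriers in the brush border bring them in from the tubule fluid, mostly with sodium or in exchange for another amino acid, and carriers in the basolateral membrane pass them on to the blood. Several of these carriers are pairs of a light chain that transports and a heavy chain that brings it to the membrane. Loss of single members causes known human disorders, among them Hartnup disorder, cystinuria and lysinuric protein intolerance.

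Libraries held between 12165089 and 23123693 counts, and 20416 to 22210 genes had a count in each. Levels are given as CPM, the deposited counts scaled to 1 common library size with a TMM correction for composition. Gfer, the targeted gene, measured 12.7, 11.4 and 14.4 CPM in the Ctrl libraries, 9.97, 17.1 and 15.03 in the sham knockout, 15.3, 20 and 17.6 in the injured control and 21.6, 22.8 and 21.6 in the injured knockout. These counts cover the whole gene and the loxP sites flank only part of it, so they do not check the deletion. Gfer was higher in the injured than in the sham knockout, by 0.64 ± 0.18 (log2, SE; adjusted p = 0.00888, edgeR). Between the injured and the sham control it differed by 0.46 ± 0.15, without overlap but not called (adjusted p = 0.0637, edgeR). Its interaction of knockout and I/R was 0.19 ± 0.25 and was not called (adjusted p = 0.593, edgeR). The female transcript Xist had 22402 and 19755 counts in Ctrl libraries 1 and 2, which had 0 counts of 4 Y-linked genes, and at most 11 counts in the other 10 libraries, all of which carried Y-linked transcripts. The sham control is therefore the only group with both sexes, and in any comparison with the sham control sex and condition are partly confounded, with only Ctrl library 3 to separate them. The 2 comparisons of the injured knockout, with the sham knockout and with the injured control, hold male libraries only. The summed level of 15 proximal tubule markers was 25990 to 27170 CPM in the sham control, 24750 to 27530 in the sham knockout, 7457 to 16760 in the injured control and 6278 to 7834 in the injured knockout. The injury marker Havcr1, the gene for KIM-1, was at 1.104 to 4.59 CPM in the 6 sham libraries, at 786, 2107 and 381 in injured control libraries 1, 2 and 4 and at 2262, 3932 and 3229 in the injured knockout. Of 5 injury markers, Havcr1, Lcn2, Krt20 and Sox9 were called higher in the injured knockout than in the injured control, and Vcam1, at 9.16 to 11.99 CPM against 15.3 to 34.6, was called lower. The summed level of 4 markers of the S3 segment, the last part of the proximal tubule, was 765 to 2253 CPM in the sham control, 2336 to 3602 in the sham knockout, 1067 to 1164 in the injured control and 447 to 660 in the injured knockout. That of 6 distal nephron and collecting duct markers was 5694 to 7781 CPM in the 6 sham libraries, 1712 to 4292 in the injured control and 2281 to 2763 in the injured knockout, and that of 8 immune cell markers was 18.1 to 23.8 CPM in the sham libraries and 47.2 to 91.8 in the 6 injured ones. In both comparisons of the injured knockout, 5 of the 8 were tested, of which Cd68, S100a8 and S100a9 were called higher and Ptprc and Adgre1 lower. Of these, S100a8 had 1 to 7 counts and S100a9 6 to 20 in the sham knockout and Adgre1 had 3 to 10 in the injured knockout, so they entered the tests through the groups where they were high. Ptprc, the pan-leukocyte gene, was at 5.82 to 6.51 CPM in the injured knockout against 10.99 to 15.2 in the sham knockout and 19.0 to 39.7 in the injured control. In bulk tissue, fewer cells of a type and less RNA per cell cannot be told apart.

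Together the 10 transporters took 0.436% to 0.474% of all counts in the Ctrl libraries, 0.384% to 0.395% in the sham knockout, 0.243% to 0.330% in the injured control and 0.175% to 0.224% in the injured knockout. For 6 of them, Slc6a20b, Slc7a7, Slc7a9, Slc7a12, Slc3a1 and Slc1a1, all 3 injured knockout libraries lay below all 9 other libraries. The share of all genes with this place was not computed, so the 6 are a description only. The injured knockout lay wholly below the sham knockout for 35% of all tested genes and wholly below the injured control for 29.1%. For Slc6a18, Slc6a19, Slc7a8 and Slc7a13 they overlapped some of those libraries, as the plot of levels by library shows.

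**Figure D1:**
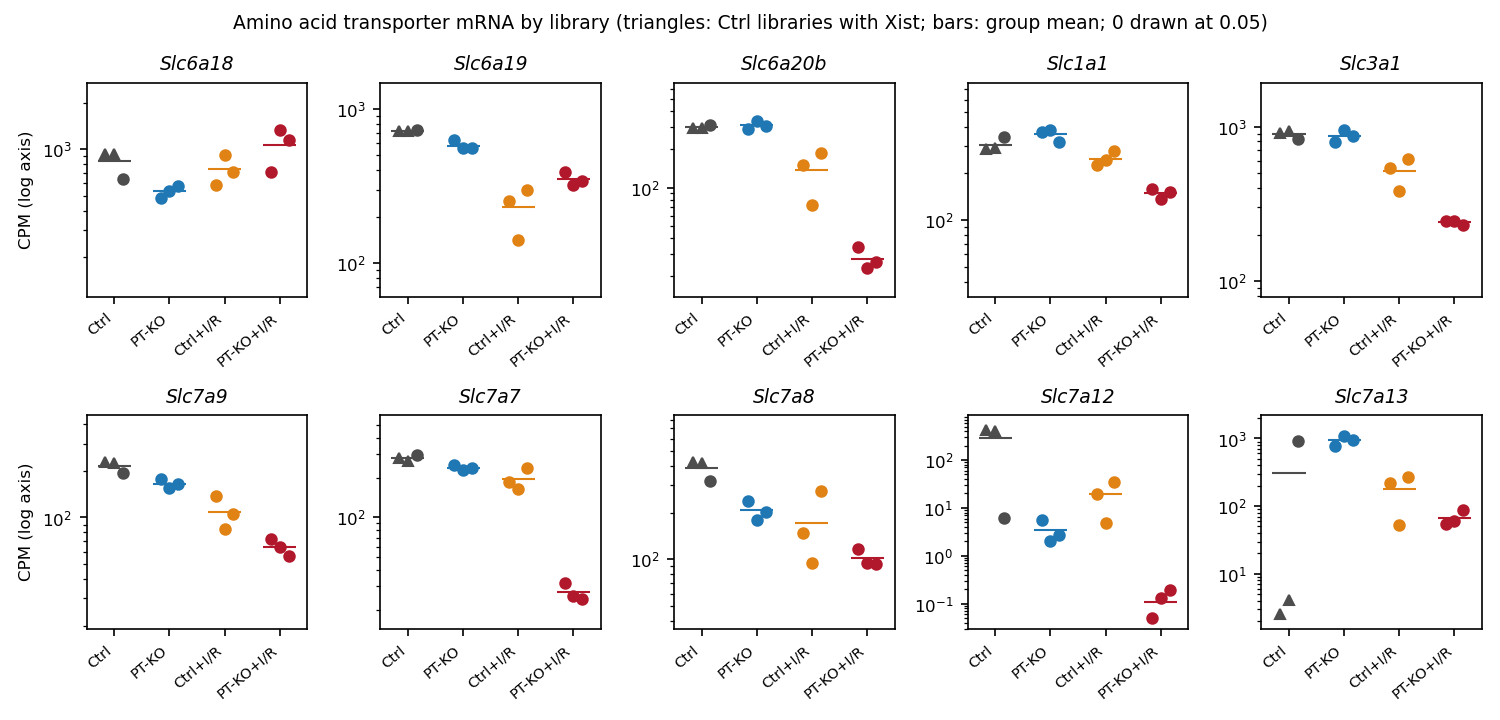
CPM of the 10 transporters in each of the 12 libraries on a log axis, 3 points a group with the group mean as a bar; a library at 0 is drawn at 0.05 CPM, and triangles mark the Ctrl libraries with Xist. The PT-KO+I/R points of Slc6a20b lie between 22.97 and 33.7 CPM, below all others, whereas those of Slc6a18 lie between 715 and 1337 CPM.

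The brush border carriers of neutral amino acids did not share one pattern. Slc6a19, the main sodium-coupled carrier of neutral amino acids and the gene of Hartnup disorder, measured 714, 714 and 732 CPM in Ctrl libraries 1, 2 and 3 and 625, 555 and 553 in sham knockout libraries 1, 2 and 4. After I/R it measured 255, 141 and 297 CPM in injured control libraries 1, 2 and 4 and 387, 322 and 341 in injured knockout libraries 2, 3 and 4. Both injured groups were below both sham groups, and the injured knockout libraries were all above the injured controls. The difference was -0.73 ± 0.10 (log2, SE, n = 3 and 3) between the injured knockout and the sham knockout, and 0.59 ± 0.26 between the injured knockout and the injured control, with an adjusted p of 0.0915 in the quasi-likelihood test of edgeR with Benjamini-Hochberg adjustment over all genes. Without injured control library 4 the second difference was 0.81 and was called, at an adjusted p of 0.0316, and without injured control library 2 it was 0.32 and was not (adjusted p = 0.0735). With all libraries it was also called by DESeq2 (0.59, adjusted p = 0.0462), by 1 edgeR fit to 12 libraries (0.60, adjusted p = 0.0293) and with Xist carriage as a covariate (0.60, adjusted p = 0.0364).

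Slc6a18, a relative that in the mouse carries glycine and other neutral amino acids and lies beside Slc6a19 on chromosome 13, was the 1 member that was higher in the injured knockout than in the sham knockout. It measured 930, 931 and 639 CPM in the sham control, 485, 536 and 581 in the sham knockout, 590, 911 and 716 in the injured control and 715, 1337 and 1139 in the injured knockout. All injured knockout libraries were above all sham knockout ones, while the injured knockout and the injured control overlapped. The difference was 0.99 ± 0.20 (log2, SE) against the sham knockout and 0.52 ± 0.25 against the injured control, which was not called (adjusted p = 0.119, edgeR) but was called without injured knockout library 2, at 0.75, and was 0.34 without injured knockout library 3 (adjusted p = 0.349). The ratio of Slc6a18 to Slc6a19 per length of transcript was 0.879 to 1.48 in the sham libraries, 2.62, 7.35 and 2.73 in the injured control and 2.09, 4.71 and 3.78 in the injured knockout, so it was above every sham value in every injured library. Over the 12 libraries the log2 CPM of Slc6a18 had a negative Pearson r with each of the other 9, from -0.11 with Slc7a12 to -0.72 with Slc1a1, given as a description since the libraries are shared.

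An antisense transcript, Slc6a19os, starts inside the span of Slc6a19 on the other strand (chromosome 13, 73699826 to 73709853, against 73679745 to 73704865 for Slc6a19, GRCm38). No exon of the pair overlaps in GENCODE M21. It had 0 to 7 counts in the sham libraries, 6, 23 and 6 in the injured control and 369, 800 and 613 in the injured knockout, which is 31.6, 35.6 and 39.5 CPM. It passed the filter in the comparisons of the injured knockout only through that group, where it was high. Its fitted difference from the injured control, 5.84 (log2), is therefore a description only. Collectrin, the gene Cltrn, brings Slc6a19 protein to the brush border and was named for that role after its values were seen. It measured 1839, 1865 and 1839 CPM in the sham knockout and 787, 651 and 720 in the injured knockout, a difference of -1.37 ± 0.10 (log2, SE; adjusted p = 1.64e-06, edgeR). Against the 1033, 665 and 930 CPM of the injured control the difference was -0.29 ± 0.19 and was not called (adjusted p = 0.226, edgeR).

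Slc6a20b, a mouse relative of the human imino acid carrier SLC6A20, was among the members with the largest differences. It measured 297, 293 and 315 CPM in the sham control and 289, 335 and 308 in the sham knockout, so the sham groups overlapped. It measured 152, 73.1 and 187 CPM in the injured control and 33.7, 22.97 and 25.9 in the injured knockout. The injured knockout was 11.4-fold below the sham knockout (log2 -3.51 ± 0.14, SE) and 5.05-fold below the injured control (-2.34 ± 0.34). Its neighbour and paralogue Slc6a20a, with which it shares 7.24% of its 50-base stretches, was lower by a smaller amount, -0.97 ± 0.13 and -0.57 ± 0.12, and both differences were called. Of the exon bases of Slc6a20b, 21.1% also lie in Sacm1l on the other strand, and of those of Slc7a7, 6.998% lie in Oxa1l on the other strand. In the injured knockout, Sacm1l was at 124 to 130 CPM and Oxa1l at 45.9 to 49.97, so each had more counts, not set to length, than the transporter it overlaps, and whether counting used the strand is not given in the sources used here.

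Slc1a1, the high-affinity carrier of glutamate and aspartate in the brush border, was not called different between the sham and injured controls, at -0.30 ± 0.14 (log2, SE; adjusted p = 0.154, edgeR). Its levels were 287, 292 and 345 CPM in the sham control, 368, 384 and 321 in the sham knockout, 228, 243 and 278 in the injured control and 159, 137 and 152 in the injured knockout. The injured knockout was below both other male groups without overlap, by -1.27 ± 0.10 against the sham knockout and -0.75 ± 0.12 against the injured control (log2, SE). Its exons overlap those of 4430402I18Rik on the other strand over 31.9% of their length, and that gene was at 1.02 to 10.5 CPM in all libraries.

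The cystine carrier is a pair of the heavy chain Slc3a1 and the light chain Slc7a9, which together also take up lysine, arginine and ornithine, and loss of either causes cystinuria. Slc3a1 measured 910, 935 and 832 CPM in the sham control, 796, 955 and 870 in the sham knockout, 537, 385 and 615 in the injured control and 247, 244 and 231 in the injured knockout. Slc7a9 measured 229, 225 and 195 CPM in the sham control, 178, 155 and 164 in the sham knockout, 137, 83.8 and 106 in the injured control and 72.1, 64.8 and 56.7 in the injured knockout. In GENCODE M21, 26.5% of the exon bases of Slc3a1 also lie in Prepl on the other strand, which was at 36.9 to 69.2 CPM over all libraries. For both chains the injured libraries were below the sham ones and the injured knockout was below the injured control. Against the injured control the differences were -1.10 ± 0.18 for Slc3a1 and -0.77 ± 0.19 for Slc7a9 (log2, SE). That of Slc7a9 was no longer called without injured knockout library 4 (-0.67, adjusted p = 0.0569, edgeR). The level of Slc7a9 per length was 0.137 to 0.248 of that of Slc3a1 over all 12 libraries.

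Slc3a1 and Slc6a20b had the most alike levels of any pair of members, with a Pearson r of 0.991 of log2 CPM over 12 libraries, given as a description since these libraries differ in group. The stretches before their starts are shown because the members moved together. RefSeq windows on GRCm38.p6, 250 bases before to 50 after a start, were at hand for 7 of the 10 members, not for Slc6a18, Slc7a12 and Slc7a13. The 250 bases before the start were searched on both strands for CAAAGTCCA, a motif of the proximal tubule factor HNF4, and a match stands in capitals. Slc3a1 (chr17:85028097-85028346, plus strand) and Slc6a20b (chr9:123632589-123632788, minus strand, ending 51 bases before its start) read as follows.
Slc3a1: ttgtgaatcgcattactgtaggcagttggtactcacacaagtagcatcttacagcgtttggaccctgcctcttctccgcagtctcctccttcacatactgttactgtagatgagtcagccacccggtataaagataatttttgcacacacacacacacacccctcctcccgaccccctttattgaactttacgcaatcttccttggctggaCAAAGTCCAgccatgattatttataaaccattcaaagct
Slc6a20b: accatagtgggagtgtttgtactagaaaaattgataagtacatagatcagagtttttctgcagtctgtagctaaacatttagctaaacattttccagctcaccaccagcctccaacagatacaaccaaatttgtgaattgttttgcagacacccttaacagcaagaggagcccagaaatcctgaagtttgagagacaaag

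The HNF4 motif stood 39 to 31 bases before the Slc3a1 start. It was in these 250 bases in 1 of the 7 members and in 0.451% of 27025 genes. A match in these windows is a description only, and the lack of one says only that these letters are not there. The gene Hnf4a, which is among the proximal tubule markers, measured 793 to 962 CPM in the sham knockout and 371 to 521 CPM in the injured knockout. It was lower in the injured knockout than in the sham knockout (-0.98 ± 0.13, log2, SE; adjusted p = 0.000105, edgeR), whereas the difference from the injured control was not called (-0.40 ± 0.20, adjusted p = 0.135).

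The basolateral light chain Slc7a7 set the injured knockout apart from the other groups. It exports lysine and arginine in exchange for neutral amino acids, and its loss causes lysinuric protein intolerance. Slc7a7 measured 282, 266 and 296 CPM in the sham control, 248, 227 and 234 in the sham knockout, 185, 163 and 237 in the injured control and 31.8, 25.5 and 23.9 in the injured knockout. The first 3 groups lay between 163 and 296 CPM and the injured knockout lay below them. It was 8.82-fold lower than the sham knockout (log2 -3.14 ± 0.12, SE) and 7.27-fold lower than the injured control (-2.86 ± 0.18). Slc7a8, the basolateral exchanger of neutral amino acids, did not follow it: its levels were 426, 416 and 319 CPM in the sham control, 239, 180 and 202 in the sham knockout, 147, 94.2 and 276 in the injured control and 117, 93.9 and 93.5 in the injured knockout. The injured knockout was below the sham knockout (-1.04 ± 0.13) but overlapped the injured control (-0.78 ± 0.35, adjusted p = 0.0981, edgeR). That difference was called, at -1.08, without injured control library 2, and, at -0.97, with total counts in place of the composition scaling, and it was -0.26 without injured control library 4 (adjusted p = 0.323). With all libraries it was also called by DESeq2 (-0.78, adjusted p = 0.0411) and by 1 edgeR fit to 12 libraries (-0.77, adjusted p = 0.0472). The same held with Xist carriage as a covariate (-0.77) and without the low-count filter (-0.79). Per length, Slc7a8 was at 0.384 to 1.04 of Slc7a7 in the 9 other libraries and at 2.45, 2.44 and 2.59 times its level in the injured knockout.

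The heavy chains moved apart. Slc3a2, the heavy chain of Slc7a7 and Slc7a8 and of several carriers outside the tubule list, is not among the 10. It measured 309, 281 and 240 CPM in the sham control, 199, 185 and 194 in the sham knockout, 199, 157 and 198 in the injured control and 376, 332 and 308 in the injured knockout. It rose in the injured knockout against the sham knockout (0.81 ± 0.10, SE; adjusted p = 4.87e-05) and against the injured control (0.87 ± 0.14; adjusted p = 0.00223, edgeR). The ratio of Slc3a1 to Slc3a2 per length was 4.58, 5.18 and 5.39 in the sham control, 6.23, 8.01 and 6.96 in the sham knockout, 4.197, 3.81 and 4.82 in the injured control and 1.02, 1.14 and 1.17 in the injured knockout. Slc7a7 per Slc3a2 was 0.974 to 1.33 in the other 9 libraries and 0.0818 to 0.0898 in the injured knockout, as the plot of ratios between partners shows. Slc7a8 per Slc3a2 was 0.424 to 1.05 in those 9 libraries and 0.1995 to 0.2199 in the injured knockout, also without overlap.

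**Figure D2:**
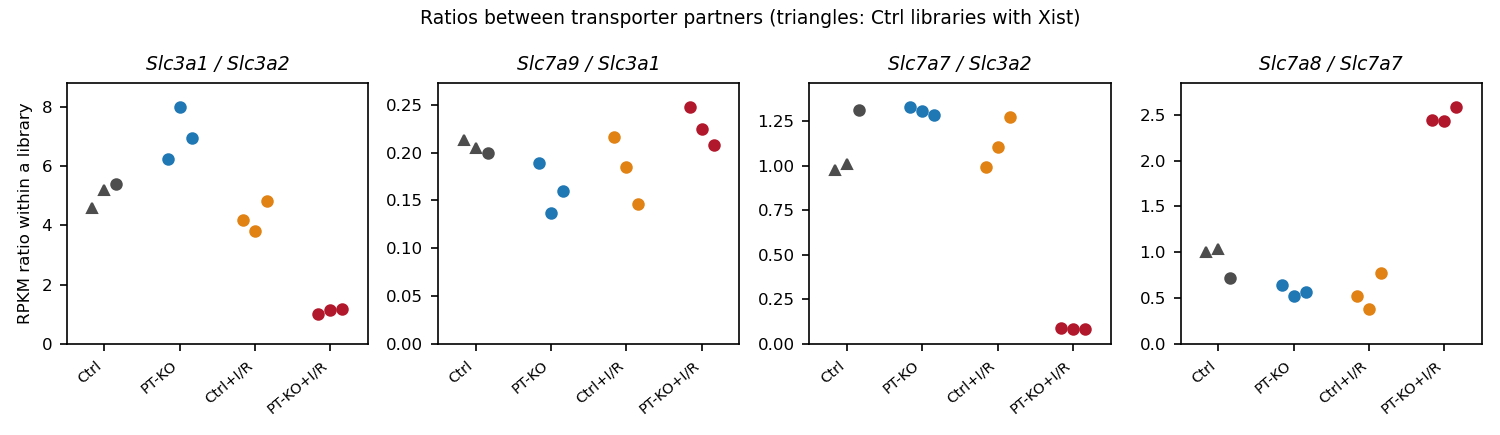
Ratios of length-scaled levels (RPKM) of transporter partners within each library, 1 point a library, by group; triangles mark the Ctrl libraries with Xist. The PT-KO+I/R libraries stand apart for Slc3a1 to Slc3a2 (1.02 to 1.17), Slc7a7 to Slc3a2 (0.0818 to 0.0898) and Slc7a8 to Slc7a7 (2.44 to 2.59), and overlap the other groups for Slc7a9 to Slc3a1.

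Slc7a12 and Slc7a13 differed widely among the Ctrl libraries. Slc7a13 is the light chain that pairs with Slc3a1 in the last part of the proximal tubule and carries aspartate, glutamate and cystine, and Slc7a12 is a rodent carrier of small neutral amino acids. In mouse kidney, Slc7a13 is known to be higher in males and Slc7a12 in females. Slc7a12 measured 430 and 411 CPM in the 2 Ctrl libraries with Xist and 6.04 CPM in the third. Slc7a13 measured 2.56 and 4.10 CPM in those 2 libraries and 928 CPM in the third. The 3 sham knockout libraries were like Ctrl library 3, with Slc7a12 at 5.68, 1.99 and 2.70 CPM and Slc7a13 at 767, 1102 and 939 CPM. Over all 12 libraries the Pearson r of their log2 CPM was -0.41, given as a description. No group mean of the sham control describes a single kidney for these 2 genes, and the sham comparison has only 1 male control for them.

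**Figure D3:**
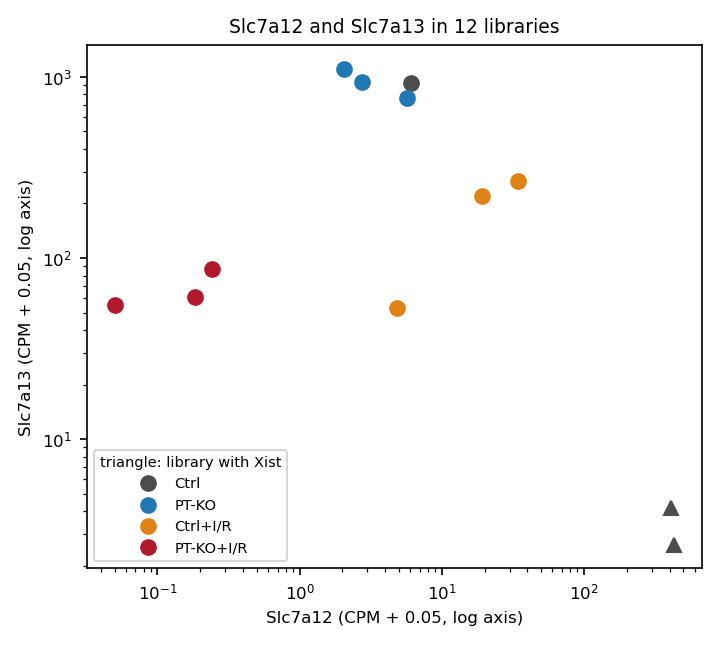
Slc7a12 against Slc7a13 in the 12 libraries, both as CPM plus 0.05 on log axes, coloured by group; triangles are the Ctrl libraries with Xist. Those 2 lie alone at the lower right (Slc7a12 at 430 and 411 CPM), Ctrl library 3 lies with PT-KO, and PT-KO+I/R lies at the far left.

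After I/R, both were lower in the knockout than in the male sham kidneys. Slc7a13 measured 221, 52.9 and 265 CPM in the injured control and 54.7, 60.8 and 87.4 in the injured knockout, against 767 to 1102 in the sham knockout. The injured knockout was 13.9-fold below the sham knockout (log2 -3.79 ± 0.20, SE) and overlapped the injured control (-1.42 ± 0.51, adjusted p = 0.0512, edgeR). The difference from the injured control was called without injured control library 2 (-1.86) and with total counts (-1.61). It was also called with Xist carriage as a covariate (-1.41) and without the low-count filter (-1.43). Without injured control library 4 it was -1.03 and was not called (adjusted p = 0.133, edgeR). Slc7a12 measured 19.1, 4.75 and 34.5 CPM in the injured control, from 427, 91 and 545 counts, and had 0, 3 and 3 counts in the injured knockout. It passed the filter in the comparisons of the injured knockout only through the group where it was higher. From summed counts scaled for library size, the injured control was 153-fold higher than the injured knockout (95% counting interval 70.2 to 419) and the sham knockout was 27.9-fold higher (12.6 to 77.1). These intervals cover counting error only.

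Read by comparison, the injured against the sham knockout called the most genes of the 4 comparisons. In the injured knockout against the sham knockout, 65.5% of 15155 tested genes were called at an adjusted p under 0.05, 32.7% lower and 32.9% higher. There, 9 of the 10 transporters were called lower and Slc6a18 was called higher, and the libraries of the 2 groups were apart for each of the 10 (9 lower, 1 higher), as for 70.8% of all genes, 35% lower and 35.9% higher. The 10 had a median log2 difference of -1.62 beside 0.01 over all tested genes. In the injured knockout against the injured control, 46.9% of 15281 genes were called, 24.4% lower and 22.5% higher. Of the 10, 6 were called lower and 0 higher, and the groups did not overlap for 6 that were lower and 1, Slc6a19, that was higher, beside 58.7% of all genes, 29.1% lower and 29.6% higher. DESeq2 and 1 edgeR fit to 12 libraries each called 8 of the 10, 7 lower and Slc6a19 higher, beside 26% of 26960 and 51.2% of 16168 genes. The 10 had a median of -0.94 beside -0.00 over all genes. With total counts in place of the composition scaling, the median of all genes in this comparison shifted by -0.21, and the calls went from 3444 higher and 3725 lower to 1978 higher and 5080 lower. Both comparisons share the injured knockout libraries.

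**Figure D4:**
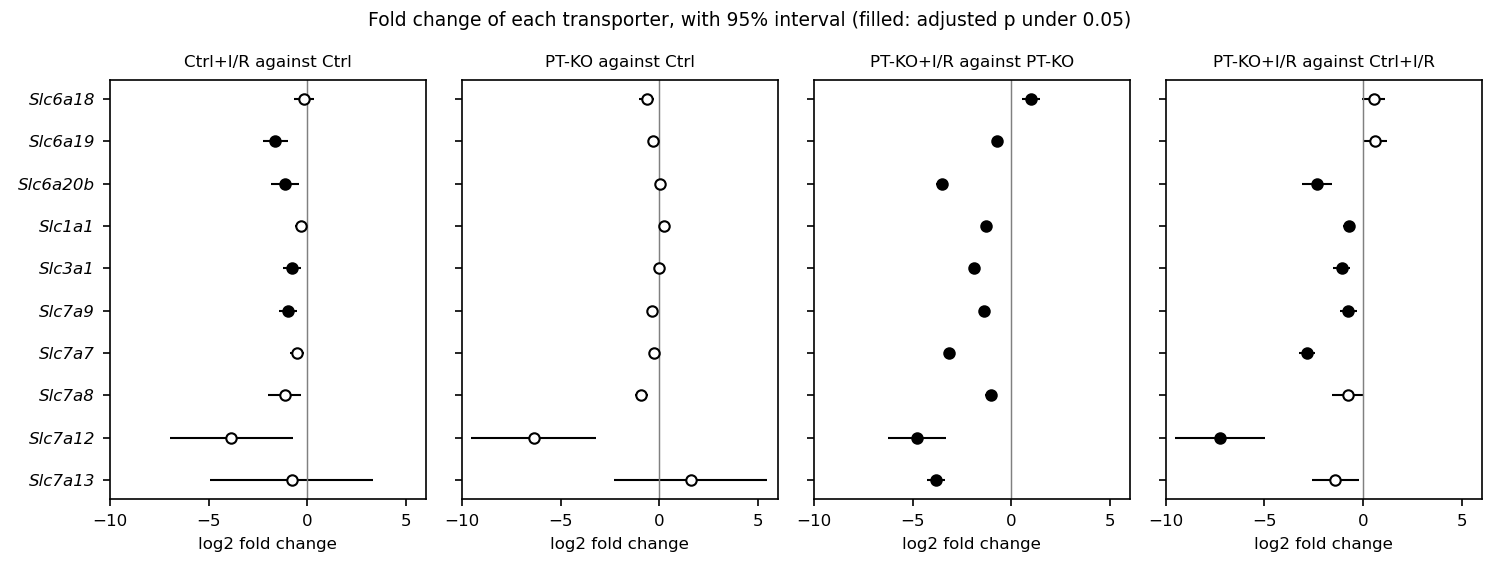
Log2 fold change of each of the 10 transporters with its 95% interval from edgeR in 4 comparisons of 3 against 3 libraries; filled points have an adjusted p under 0.05. All 10 are filled for the injured against the sham knockout, 6 for the injured knockout against the injured control, 4 for the injured against the sham control and 0 for the sham groups.

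In the injured control against the sham control, all 10 values were negative and 4 were called lower: Slc6a19 (-1.63 ± 0.27), Slc6a20b (-1.12 ± 0.31), Slc7a9 (-0.98 ± 0.19) and Slc3a1 (-0.79 ± 0.20, log2, SE). Over all 15567 genes 19.4% were called, 7.97% lower and 11.4% higher. The groups did not overlap for 7 of the 10, all lower, beside 43.7% of all genes, 22.3% lower and 21.3% higher. Total counts turned 1778 higher and 1241 lower calls into 2346 and 766. None of the 4 was called without Ctrl library 1 or without Ctrl library 2, and Slc6a20b and Slc3a1 were also not called without Ctrl library 3 or injured control library 1. When only the 10 libraries without Xist were fitted, so that the sham control was library 3 alone and was assumed to vary like the other groups, Slc6a19 was at -1.68 and Slc7a9 at -0.86, both called, and Slc6a20b (-1.21) and Slc3a1 (-0.72) were not. In that fit Slc7a13 was at -2.39 and called, and Slc7a12 turned to 1.66 and was not called.

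In the sham knockout against the sham control, edgeR called 0 of 15291 genes (0%), the 10 transporters included. At an unadjusted p under 0.05 it had 2573 genes, among them 6 of the 10, and DESeq2 called 440 genes and 5 of the 10. Slc7a8 was at -0.90 ± 0.15 and Slc6a18 at -0.64 ± 0.16 (log2, SE), with no overlap between the groups. The groups did not overlap for 6 of the 10, all lower, beside 21% of all genes, 11.2% lower and 9.76% higher. Against Ctrl library 3 alone, in the fit without the Xist libraries, these values were -0.64 and -0.27. Slc3a1 and Slc6a20b overlapped between the sham groups, with 95% intervals of -0.27 to 0.21 and -0.17 to 0.25.

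Whether injury moved a transporter by a different amount in the knockout was tested by the interaction of knockout and I/R over all 12 libraries, which called 30.6% of 16168 genes, 14.3% higher and 16.4% lower. The difference between the knockout and the control response was -2.60 ± 0.20 for Slc7a7, -2.37 ± 0.37 for Slc6a20b, -1.06 ± 0.22 for Slc3a1 and -0.96 ± 0.17 for Slc1a1 (log2, SE), all called, and each was also called in the fit without the Xist libraries, at -2.54, -2.32, -1.17 and -0.80. For Slc6a18 (1.17 ± 0.33) and Slc6a19 (0.92 ± 0.29) the interaction was called with all libraries but not in the fit without Xist, where it was 0.78 and 0.94. That of Slc7a12 was -0.88 ± 2.96 with all libraries and was called lower without the Xist ones, a call that rests on 109 counts in Ctrl library 3 and on 0, 3 and 3 counts in the injured knockout, so that no size is given for it. Over all genes, total counts turned 2305 higher and 2648 lower calls into 1591 and 2997.

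Set against each other per length of transcript, as RPKM, the carriers changed places between the groups. Slc3a1 had the highest mean in the sham control (393 ± 23.7, SD, n = 3) and, beside Slc6a18 (167 ± 36.7) and with overlapping libraries, in the injured control (226 ± 51.6). In Ctrl library 3, the only male control, Slc7a13 (433 RPKM) was above Slc3a1 (366 RPKM), while in the Ctrl libraries with Xist it was at 1.92 RPKM or less. In the sham knockout, Slc7a13 (437 ± 78.4) and Slc3a1 (385 ± 35.0) led with overlapping libraries, followed by Slc6a18 (121 ± 10.9) and Slc6a19 (115 ± 8.17), which overlapped too. In the injured knockout, Slc6a18 (241 ± 72.0) came first, then Slc3a1 (106 ± 3.61) and Slc6a19 (69.9 ± 6.73), with no overlap among these 3. Below them Slc7a13 (31.6 ± 8.13), Slc7a9 (24.1 ± 2.87), Slc7a8 (20.3 ± 2.73) and Slc1a1 (18.1 ± 1.34) each overlapped the next, and Slc7a7 (8.16 ± 1.25), Slc6a20b (3.22 ± 0.65) and Slc7a12 (0.063 ± 0.057) each lay below the one before. Of the 9 pairs of neighbours in this order, 6 overlapped in the sham control, 4 in the sham knockout, 7 in the injured control and 3 in the injured knockout.

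Of 43 other amino acid transporters, 32 had enough counts to be tested in the injured knockout against the sham knockout, and 14 fell and 8 rose, with a median of -0.27, where 65.5% of all genes were called. Among those that fell were Slc1a2 (-3.40 ± 0.36), a glutamate carrier, Slc38a11, Slc6a13 (-2.36 ± 0.11), a carrier of GABA and taurine, and Slc36a1 (-1.80 ± 0.13, log2, SE), a proton-coupled carrier of small amino acids. Slc38a11 had 11 to 15 counts in the sham knockout and 1 to 3 in the injured knockout, and Slc1a2 123 to 141 and 4 to 20, and both passed the filter only through the former. The largest rises were those of Slc7a11 (5.09 ± 0.65), the cystine and glutamate exchanger, Slc38a2 (2.49 ± 0.18), a sodium-coupled carrier of small neutral amino acids, Slc7a1 (2.13 ± 0.21), which takes up lysine and arginine, and Slc7a5 (2.08 ± 0.22), which takes up large neutral ones. Slc7a11 and Slc7a5 are light chains of Slc3a2. Slc38a2 measured 84.6, 65.6 and 90.8 CPM in the sham knockout, 183, 271 and 127 in the injured control and 341, 481 and 541 in the injured knockout, with no overlap. Slc7a11 was low throughout, at 0.252 to 0.552 CPM in the sham knockout, 0.696 to 2.25 in the injured control and 3.94, 21.9 and 12.8 in the injured knockout. With 4 to 9 counts in the sham knockout and 46 to 492 in the injured knockout, it entered the comparison of these 2 groups only through the group where it was high. Its first place among the rises is therefore a description only.

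Against the injured control, 10 of the 32 tested fell and 7 rose in the injured knockout, where 46.9% of all genes were called. Among those that fell were Slc1a2 (-2.68 ± 0.45), Slc38a3 (-1.79 ± 0.31), a glutamine carrier, Slc6a13 (-1.79 ± 0.29) and Slc1a4 (-1.67 ± 0.26), and the rises were led by Slc7a11 (3.16 ± 0.63), Slc6a14 (2.13 ± 0.49), Slc38a2 (1.23 ± 0.28) and Slc7a6 (1.17 ± 0.18, log2, SE). Slc1a2 had 60 to 116 counts in the injured control and here too passed the filter only through the group where it was high. Slc6a14 was low in both groups, with 9 to 13 counts in the injured control and 12 to 65 in the injured knockout. Slc1a4, a carrier of alanine, serine and cysteine, moved in opposite directions in the 2 genotypes: it measured 17.5, 15.1 and 22.3 CPM in the sham control and 56.8, 80.5 and 41.1 in the injured control, but 26.1, 48.0 and 26.3 in the sham knockout and 16.3, 24.0 and 15.5 in the injured knockout, and its interaction was -2.54 ± 0.41 (adjusted p = 0.00103, edgeR). In the injured control against the sham control, where 11.4% of all genes were called higher and 7.97% lower, 7 of the 32 tested rose, led by Slc1a4 (1.70 ± 0.26) and Slc7a5 (1.34 ± 0.35), and 6 fell, led by Slc6a12 (-1.69 ± 0.35) and Slc7a2 (-1.23 ± 0.17). These are 13 calls, against 1, 3 and 8 without Ctrl library 1, 2 or 3, and 3 and 6 without injured control library 1 or 2. The share of all genes called in those fits is not given here. With Xist carriage as a covariate 6 were called, and the share of all genes called fell from 19.4% to 10.5%. In the sham knockout against the sham control 0 of 31 tested were called by edgeR, where 10 had an unadjusted p under 0.05, and 4 by DESeq2.

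**Figure D5:**
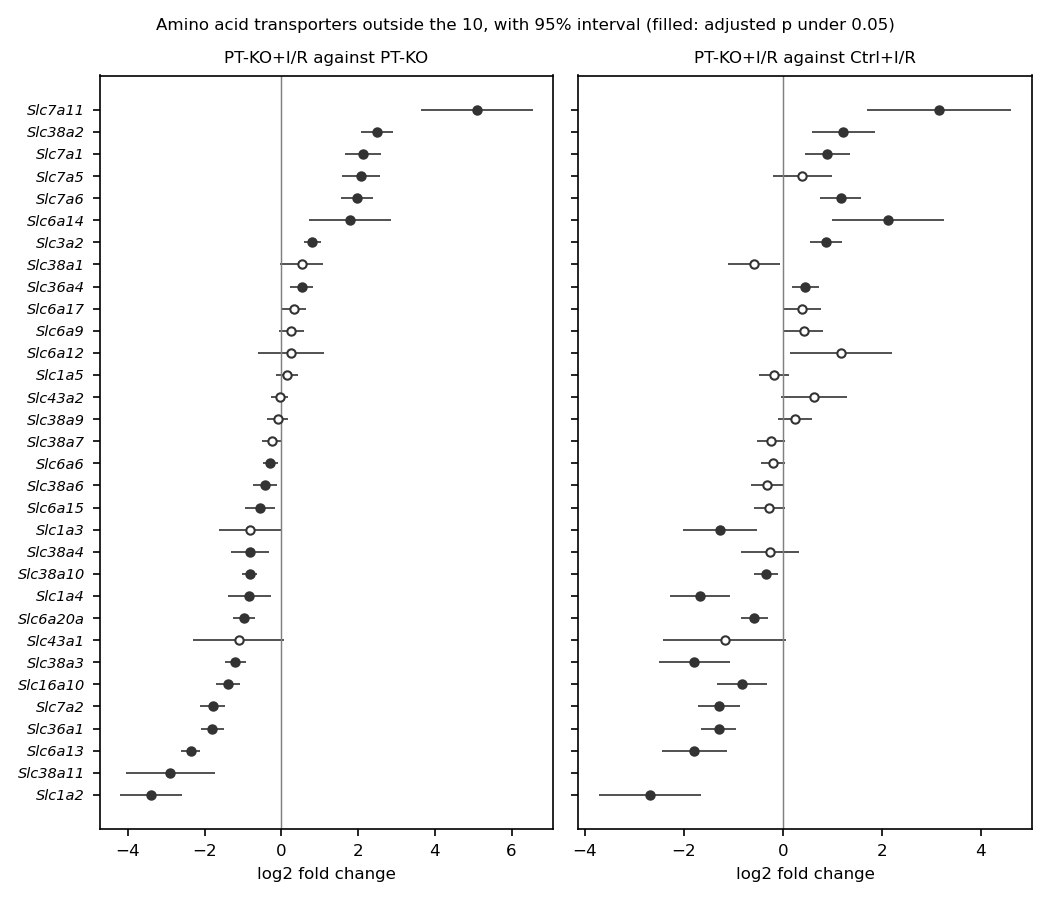
Log2 fold change with its 95% interval from edgeR for the tested amino acid transporters outside the 10, for PT-KO+I/R against the sham knockout and against the injured control, ordered by the first; filled points have an adjusted p under 0.05. Slc7a11 is at the top in both (5.09 and 3.16) and Slc1a2 at the bottom (-3.40 and -2.68). Both genes entered the first comparison only through the group where they were high.

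Genes that work beside the transporters were counted in the same 2 comparisons, in which 32.7% of all genes were called lower against the sham knockout and 24.4% against the injured control. Of 12 brush border peptidases and partner proteins, 11 were tested against the sham knockout and 11 fell, led by the scaffold Pdzk1 (-3.32 ± 0.15) and the aminopeptidase Anpep (-2.66 ± 0.10), and 8 of 12 fell against the injured control. Of 22 tested enzymes of amino acid breakdown, 20 fell and 0 rose against the sham knockout, among them Aldh4a1 of proline breakdown (-2.90 ± 0.15, log2, SE). Against the injured control, 9 of the 22 fell and 1, Aass of lysine breakdown, rose (1.005 ± 0.16). All 15 proximal tubule markers were called lower against the sham knockout and 6 of the 15 against the injured control, as were 4 of 4 and 1 of 4 markers of the S3 segment. The part of these marker changes in the transporter values was not tested.

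Over 12 libraries, the genes most like 3 of the members in level were sought among the 10988 genes that averaged 100 counts or more. Closest to Slc7a12 were Slc4a2 (Pearson r of log2 CPM 0.972), Oat (0.963) and Ptpro (0.962). Closest to Slc7a13 were Cyp7b1 (0.986), Ugt2b38 (0.974) and Slc22a30 (0.972), and Cyp7b1, like Slc7a13, was at 2.66 and 3.12 CPM in the Ctrl libraries with Xist and at 233 CPM in Ctrl library 3. Closest to Slc6a19 were Rmnd5a (0.987), Slc22a5 (0.977) and Itm2b (0.973). These r values are a description over libraries that share groups.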

How the data were processed

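The authors deposited 1 table of raw read counts per gene, 55487 Ensembl genes by 12 libraries, neither normalized nor filtered. The submitters' processing notes name HISAT2 2.0.4 and the mm10 build, and the counting program and its strand setting are not given in the sources used here. Symbols, exons and coordinates came from GENCODE M21 on GRCm38. The column used as Ctrl library 3 matches its group but no sample title, so it has no replicate number. The labels do not say that libraries of 1 group came from separate litters, and p-values measure the spread between these libraries. Replicate libraries differed by more than counting noise (chi-square per degree of freedom at least 8.21).

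Counts of each pair of groups were filtered (filterByExpr), scaled by TMM and tested with the quasi-likelihood test of edgeR 4.0.16 in R 4.3.3, with Benjamini-Hochberg adjustment over all tested genes and calls at an adjusted p under 0.05. CPM and RPKM used TMM over 12 libraries. Alternatives were RLE and total count scaling, no filter, DESeq2 1.42.0, 1 fit to 12 libraries, a replicate block, leaving out each library, Xist carriage as a covariate and only libraries without Xist. The methods were tested on simulated data. The members and all gene lists were chosen with earlier results of these data known. The text names the 10 members, Gfer, Slc6a19os, Slc6a20a, genes that check tissue, sex or injury, from each list up to 4 called genes of largest change in each direction, and the 3 genes most like Slc7a12, Slc7a13 and Slc6a19. Some genes of these lists are not reported here.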

Additional observations from a re-analysis of the deposited data

Results flagged for a closer look

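For 6 of the transporters the response to I/R differed between the genotypes by the interaction test of edgeR over 12 libraries, which called 30.6% of all genes. The response in the knockout minus that in the control was -2.60 (log2) for Slc7a7 (adjusted p = 2.03e-05), -2.37 for Slc6a20b (adjusted p = 0.000832), -1.06 for Slc3a1 (adjusted p = 0.0036) and -0.96 for Slc1a1 (adjusted p = 0.00155). It was 1.17 for Slc6a18 (adjusted p = 0.0189) and 0.92 for Slc6a19 (adjusted p = 0.033). The first 4 were called in every fit that left out 1 library. The value for Slc6a18 was 0.96 and not called without PT-KO+I/R library 3 (adjusted p = 0.05002). That for Slc6a19 was called in 6 of 12 such fits and lost without Ctrl library 1 (0.92) or 2 (0.93), PT-KO library 2 (0.89) or 4 (0.89) and PT-KO+I/R library 2 (0.84) or 4 (0.94). In the fit without the Xist libraries neither was called (adjusted p = 0.189 for Slc6a18 and 0.123 for Slc6a19).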

How the results depend on the processing

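Of the 10 members, all 10 were called in the injured against the sham knockout in each of the 6 fits that left out 1 library (10 to 10). In the injured knockout against the injured control, the 6 calls ranged from 5 to 8 in such fits, in the injured against the sham control the 4 calls from 0 (without Ctrl library 1 or 2) to 6, between the sham groups the 0 calls from 0 to 5 (without Ctrl library 3, the male one), and in the interaction the 6 calls from 5 to 7. The calls among the other transporters ranged from 18 to 26 (22 with all libraries), 13 to 19 (17), 1 to 16 (13), 0 to 7 (0) and 10 to 17 (14) in the same order. The share of all genes called in each of these fits is not given here. The ranges therefore do not tell whether the transporters moved differently from other genes.

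In the injured knockout against the injured control, total counts, no filter, DESeq2 and 1 fit to 12 libraries each called 8 members (of all genes, 46.2%, 26.9%, 26% and 51.2%), the Xist covariate 9 (48.5%) and the libraries without Xist 7 (46.7%), against 6 (46.9%). In the injured against the sham control, DESeq2 and 1 fit to 12 libraries each called 7 members (14.5% and 30.5% of all genes, against 19.4%), and the latter no longer called Slc7a12 in the injured against the sham knockout (-4.75, adjusted p = 0.0804). Between the sham groups, no filter on low counts gave 3 members and 4 other transporters (1.47% of all genes), and DESeq2 gave 5 and 4 (1.66%). With Xist carriage as a covariate, the other transporters called were 6 against 13 in the injured against the sham control. In the interaction they were 8 against 14. The share of all genes called fell too, from 19.4% to 10.5% and from 30.6% to 17%.

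A replicate block by label number gave 8 members in the injured against the sham control (3924 genes in all against 3019), 5 members and 7 other transporters between the sham groups (1590 genes against 0) and 3 members and 4 other transporters in the injured knockout against the injured control (1460 genes against 7169). A library whose number is not in both groups, such as Ctrl library 3, has its own block and adds nothing to the fitted difference. The first 2 comparisons then rest on libraries 1 and 2 of each group, with only the Xist libraries as controls. The third rests on libraries 2 and 4 of each group. These counts therefore cannot be read as an effect of pairing alone. Over 12 pairs of libraries with 1 number the correlation of deviations from the group means was -0.175 to 0.165, and 1 pair was over 0.1. With 3 libraries a group, and libraries that stand in several pairs, this cannot tell whether a number stands for anything shared. The block turned Slc7a13 in the injured against the sham control to 5.07 and Slc7a12 in the interaction to 0.0914. For Slc7a13 in that comparison, leaving out Ctrl library 3 without a block gave 5.79.

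The other signs that changed also belonged to differences that the report gives as not called. With the Xist covariate and with only the libraries without Xist, Slc6a18 turned to 0.21 and 0.19 and Slc7a12 to 1.67 and 1.66 in the injured against the sham control, Slc6a20b to -0.023 and -0.030 and Slc3a1 to 0.068 and 0.060 between the sham groups, and Slc7a8 to -0.145 and -0.15 in the interaction. Total counts turned Slc6a20b to -0.084 between the sham groups. Leaving out 1 library gave -1.35 (without Ctrl library 1) to 5.79 (without Ctrl library 3) for Slc7a13 in the injured against the sham control. Between the sham groups it gave -0.012 to 0.093 for Slc6a20b and -0.095 to 0.035 for Slc3a1. In the interaction it gave -0.17 to 0.65 for Slc7a8. The cause of these changes was not tested.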
